A study of Mus musculus with 6 samples.

Results

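The Rab GTPases and the membrane fusion genes that work with them were followed in the embryonic cerebral cortex of mice that lack the active copy of Mest. Members were taken by gene symbol alone, as every probe whose symbol begins with Rab, Vamp, Stx, Snap or Syt and a digit, or with Stxbp. The rule found 108 of the 21766 probes, for 102 of the 15063 genes named on the array. It used no measured value, but the members and lists were chosen with earlier results of these data known. Of the 108 probes, 23 were for synaptic members and 85 for members of general trafficking. A total of 99 member probes, for 95 genes, had enough values to be tested, among 17476 tested probes of all kinds.

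Mest, also called Peg1, is an imprinted gene expressed from the copy inherited from the father. Mutant embryos had a wild-type mother and received a LacZ-targeted allele without exons 3 to 8 from the father. RNA of 6 single mutant cortices at stage E12.5 was compared with RNA of single wild-type cortices of the same stage on 6 dual-channel arrays. Mutants 3, 5 and 6 were labelled with Cy5, against wild types 1, 8 and 9, and mutants 1, 4 and 7 with Cy3, against wild types 2, 8 and 9. The wild type labelled 1 is not among the names in the design text, which lists wild types 2, 8 and 9, and it was read as wild type 2. Each wild-type cortex was thus taken to serve 2 arrays, once in each dye. The whole cortex was used, without sorting, so that fewer cells of a type and less RNA per cell cannot be told apart.

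Every value is the log2 of mutant over wild type, less the median of its array, so that a ratio of 0 means a level that moved with the average probe. Values by array are given in the order of mutants 3, 5 and 6 (mutant in Cy5) and then 1, 4 and 7 (mutant in Cy3). A fitted ratio is the genotype coefficient of a limma fit over all tested probes with a term for the dye, and its 95% confidence interval comes from the same fit. An adjusted p is the Benjamini-Hochberg value over all tested probes, with a threshold of 0.05. Ratios hold no level, so no member's abundance was compared with another's, and the tissue label could not be checked against marker levels.

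Rab proteins are small GTPases that mark membranes: in the GTP-bound form they sit on a vesicle or organelle and recruit motors and tethering factors, and each member serves its own step between the endoplasmic reticulum, the Golgi, endosomes and the cell surface. Fusion is then carried out by SNARE proteins, in which a vesicle member of the Vamp family zippers with syntaxin and Snap members on the target membrane, with help from syntaxin-binding proteins. Neurons use a specialised set for transmitter release, with Rab3 on synaptic vesicles, Vamp2, Stx1a and Snap25 as the fusion complex, and Syt1 as the calcium sensor. In the cortex at mid-gestation most cells are progenitors and young neurons, and general trafficking serves growth of their membranes.

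No member passed the adjusted threshold for genotype, as no probe of the whole array did (0 of 17476, 0%). At an unadjusted limma p under 0.05, 5 of 99 member probes differed (5.05%), against 687 of all probes (3.93%). Rab43, Rab3gap1 and Rab3ip were the 3 higher in mutants, where 1.6% of all probes were, and Rab34 and Syt5 the 2 lower, where 2.33% of all probes were. The adjusted p of each was 0.90 (limma). Without the array of mutant 6 the count was 2 of 89 (2.25%), beside 5.66% of all probes. Without the array of mutant 7 it was 3 of 95 (3.16%), beside 2.14%. The fitted ratios were spread evenly, with 53 probes above 0 and 46 below and a median of 0.0089, beside 0.0069 over all tested probes.

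The promoters of 4 members are shown: that of Rab43, the member with the smallest p for genotype, those of Stx1a and Rab3a, which stand for synaptic members with a tight and a wide spread over arrays, and that of Rab3d, the 1 member called for the dye. Each is the 250 bases before the start site from RefSeq (assembly GRCm38.p6), 5′ to 3′ on the gene's strand, taking the first window listed for the gene. Capitals mark the letters GGGCGG, a GC box, on either strand (CCGCCC when read on the other).
Rab43 (chr6:87812165-87812414, minus strand): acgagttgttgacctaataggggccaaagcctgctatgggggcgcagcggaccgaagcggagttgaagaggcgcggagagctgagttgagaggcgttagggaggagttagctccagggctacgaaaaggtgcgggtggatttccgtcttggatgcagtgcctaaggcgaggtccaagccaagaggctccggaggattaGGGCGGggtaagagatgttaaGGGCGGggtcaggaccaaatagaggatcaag
Stx1a (chr5:135023232-135023481, plus strand): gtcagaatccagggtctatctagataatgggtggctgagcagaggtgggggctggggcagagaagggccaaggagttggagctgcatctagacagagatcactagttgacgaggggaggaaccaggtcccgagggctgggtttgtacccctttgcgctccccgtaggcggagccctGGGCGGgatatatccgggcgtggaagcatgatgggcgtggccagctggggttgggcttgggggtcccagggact
Rab3a (chr8:70754453-70754702, plus strand): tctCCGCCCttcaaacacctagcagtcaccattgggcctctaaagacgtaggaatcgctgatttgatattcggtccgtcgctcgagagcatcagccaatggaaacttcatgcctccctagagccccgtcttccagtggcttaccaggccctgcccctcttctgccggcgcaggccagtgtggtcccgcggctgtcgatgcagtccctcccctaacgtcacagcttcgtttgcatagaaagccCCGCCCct
Rab3d (chr9:21918184-21918433, minus strand): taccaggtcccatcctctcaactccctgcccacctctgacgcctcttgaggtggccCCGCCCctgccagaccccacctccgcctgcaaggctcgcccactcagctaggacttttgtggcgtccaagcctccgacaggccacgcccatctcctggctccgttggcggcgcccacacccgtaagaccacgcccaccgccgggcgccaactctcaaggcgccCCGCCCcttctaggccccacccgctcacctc
All 4 windows hold a GC box, with 2 each in Rab43, Rab3a and Rab3d. Rab3a alone of the 4 also holds CCAAT (either strand), at 2 places.

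Windows were found for 84 of the 102 member genes, 14 of them synaptic. GC boxes were in 56 of these 84 (66.7%), against 32.9% of 27025 promoters of the same length, and in 13 of 14 synaptic members (92.9%) against 43 of 70 general ones (61.4%). The 27025 promoters are those of every gene with a listed window and were not limited to the genes on the array, from which the members were drawn. Member promoters were also richer in G and C, with a median of 60.6% against 52% over all promoters. CCAAT was in 38.1% of members and 34.5% of all promoters. TATAAA was less frequent among members, in 5 of 84 (5.95%) against 13.0%. The cyclic AMP response element TGACGTCA was in 3.57% of members and 1.62% of all promoters, and the letters TTCAGCACC, part of the element bound by the neuronal repressor REST, were in 0 of 84 and in 0.285%. All motifs were searched on both strands. These are matches of letters, and they were not tested against the ratios.

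Mest itself, which checks the labels, lay at -1.36, -1.78 and -1.39 and at -1.50, -2.07 and -1.44, low in all 6 mutants. Its fitted ratio was -1.59 (SE 0.13), 3.01-fold lower (limma, unadjusted p = 3.4e-05, adjusted p = 0.60). An exact sign-flip permutation test over arrays gave a two-sided p = 0.03125, the smallest that 6 arrays allow. The permutation test flips each array on its own and so treats as independent the 2 arrays taken to share a wild-type cortex. The direction of the deposited ratios was read from Mest, so its sign is no independent check. Between 16422 and 19564 probes, and 91 to 99 of the 108 member probes, had a value on an array. The depth of an array cannot be given because no spot intensity was used, and the number of arrays limits the precision. The mean over 4 red blood cell genes was below 0 on all 6 arrays, at -0.31 ± 0.14 (SD, n = 6 arrays). Of the 5 probes of these genes, 2 were below 0 on every array. The 11 neuron markers measured, among them Tubb3, Dcx and Tbr1, gave -0.029 ± 0.26. The part of either in the members' ratios was not tested.

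The core of the synaptic fusion machine was close to 0 in mutant cortex. Vamp2, the vesicle SNARE of transmitter release, had -0.023, -0.21 and -0.19 with the mutant in Cy5 and 0.10, 0.11 and 0.042 in Cy3. All 3 values of the first orientation lay below all 3 of the second, and none was beyond 0.22 in size. Its fitted ratio was -0.029 (SE 0.075), with an interval from -0.22 to 0.16, the narrowest of the synaptic members named here. Stx1a, the target-membrane syntaxin that pairs with it, had 0.29, 0.45 and -0.001 and then 0.098, 0.20 and -0.040. It was above 0 on 4 of 6 arrays, and its fitted ratio of 0.16 (SE 0.094) had an interval from -0.07 to 0.40. Snap25, the third SNARE of that complex, ran from -0.34 to 0.75, with the high value in mutant 5 and the others at 0.17 or lower. It was fitted at 0.049 (interval -0.36 to 0.46). Vamp1, the sister of Vamp2, had 2 probes, at 0.013 and -0.091, with all 12 values between -0.45 and 0.32.

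The calcium sensors of the synaptotagmin family were mixed. Syt1, the fast sensor of synaptic release, had 0.53, 0.057 and -0.17 and then -0.19, 0.39 and -0.19, with the arrays of both orientations on both sides of 0. It was fitted at 0.072 (SE 0.16). Syt2, its counterpart, lay between -0.19 and 0.33 and was fitted at 0.021. Syt7, a slower high-affinity sensor, had 0.024, -0.041 and -0.10 with the mutant in Cy5 and 0.50, 0.19 and 0.21 in Cy3, so that the orientations did not overlap, and was fitted at 0.13 (interval -0.08 to 0.34). Syt9 stayed between -0.30 and 0.18, with a fitted ratio of -0.010. Syt11, a member that does not bind calcium, had the highest gene mean of the synaptic members, 0.22 over probes fitted at 0.19 and 0.26. Those 2 probes were not high in the same mutants, as mutant 5 gave 0.47 on the first and -0.14 on the second.

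Syt5 was the only synaptic member at an unadjusted p under 0.05, and it was lower in mutants. Its values were -0.89, 0.21 and -0.50 with the mutant in Cy5 and -0.64, -0.25 and -0.96 in Cy3. It was below 0 on 5 of 6 arrays, mutant 5 being the exception, and the orientations overlapped. The fitted ratio was -0.50 (SE 0.19, interval -0.98 to -0.03; limma, unadjusted p = 0.040, adjusted p = 0.90). With single arrays left out, the unadjusted limma p stayed under 0.05 in 2 of 6 fits, those without mutants 5 and 4, and reached 0.11 without mutant 7. The p was also under 0.05 in 10 of 13 other settings. Without centring the ratio was -0.25 (limma, unadjusted p = 0.51), with the arrays centred on the Gapdh control spots it was -0.24 (limma, unadjusted p = 0.29), and with the mutant in Cy5 only it was -0.39 (limma, unadjusted p = 0.25). Syt10 was fitted at -0.32 (interval -0.84 to 0.20), with 4 of its values between -0.92 and -0.33 and those of mutants 3 and 5 at 0.21 and 0.33. Syt3, Syt6 and Syt12 were fitted between -0.039 and 0.24, and the highest value of this group was 1.42, of a Syt6 probe in mutant 5.

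Among the Rab3 proteins, which sit on synaptic vesicles, the spread differed between paralogs. Rab3c had -0.41, -0.10 and -0.16 and then 0.010, 0.26 and 0.25, below 0 with the mutant in Cy5 and above 0 in Cy3, and was fitted at -0.023 (interval -0.24 to 0.20). Rab3a had -2.89, 0.51 and -0.008 and then 0.14, 0.076 and 0.22. The single low value was that of mutant 3, and 4 of the other 5 were above 0. Its fitted ratio was -0.32 (SE 0.53), and without that array it was 0.20 (limma, unadjusted p = 0.19). Rab3b ran from -1.79 in mutant 5 to 1.83 in mutant 4, with an interval from -1.84 to 1.28 that reaches far to both sides of 0. Snap91, a clathrin assembly protein of synaptic vesicle recycling, had 0.50, 0.73 and 0.17 against -0.20, 0.021 and -0.24 and was fitted at 0.16. The syntaxin-binding gene Stxbp5, also called tomosyn, was fitted at 0.096, and its second probe had a value on 1 array alone.

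**Figure D1:**
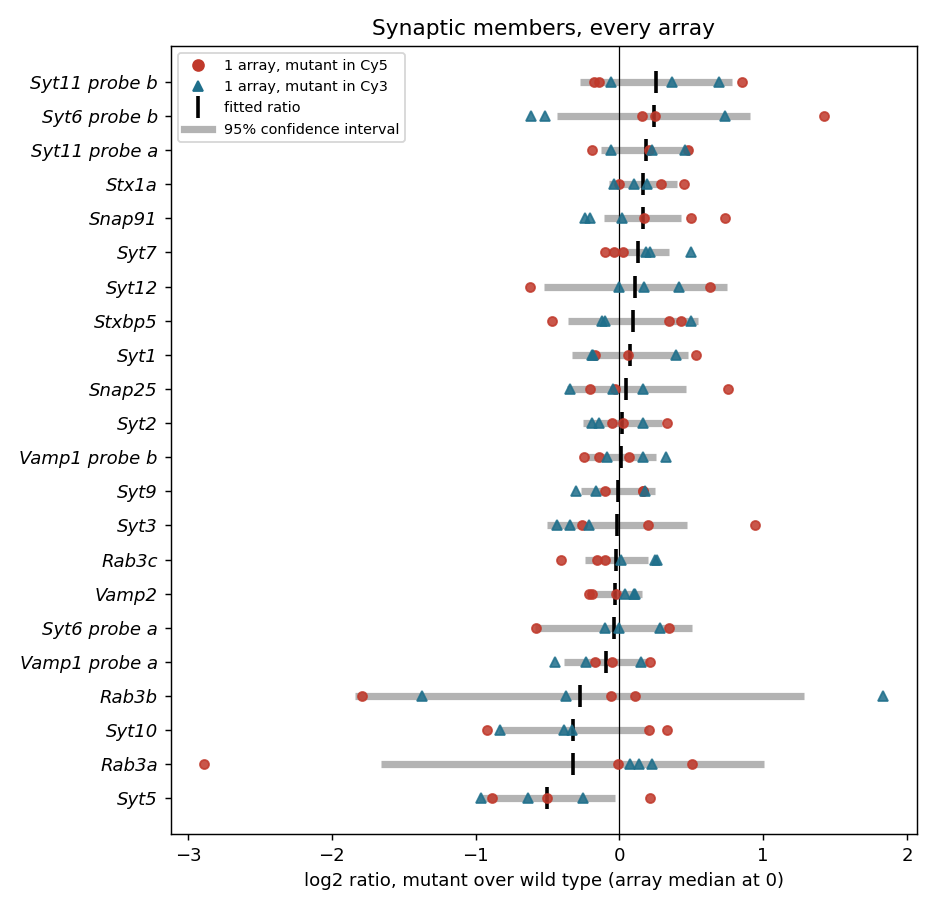
Log2 ratio of mutant over wild type (x axis) for each tested probe of a synaptic member (y axis), with 1 point per array (circles, mutant in Cy5; triangles, mutant in Cy3), the fitted ratio as a black bar and its 95% confidence interval in grey. Intervals include 0 for every probe except Syt5, and the lowest point is Rab3a in mutant 3 at -2.89.

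Synaptic and general members did not separate. Averaged over 19 synaptic genes, the ratios were -0.11, 0.19 and -0.083 with the mutant in Cy5 and -0.13, 0.15 and -0.10 in Cy3, a mean of -0.014 ± 0.14 (SD, n = 6 arrays). The list was above 0 with mutants 5 and 4, both compared with wild type 8, and below 0 on the other 4 arrays. Averaged over 76 general genes, the ratios were 0.065, 0.18, 0.059, 0.051, -0.028 and -0.077, a mean of 0.041 ± 0.087. The synaptic mean minus the general mean was -0.18, 0.014 and -0.14 and then -0.18, 0.18 and -0.026, on average -0.055 ± 0.14, a difference smaller than its spread over arrays. It was above 0 on 2 of 6 arrays, and its sign depended on how the lists were summarised: it was 0.0013 with medians over genes and 0.080 with a wider synaptic list that adds the other synaptotagmins, Rab3d, both Rab27 genes and the Rab3 regulators. The median fitted ratio was 0.021 over the synaptic genes and 0.0086 over the general ones, with 10 above 0 and 9 below, and 41 above and 35 below. Over all 12576 genes it was 0.0013, with 6319 above and 6257 below.

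**Figure D2:**
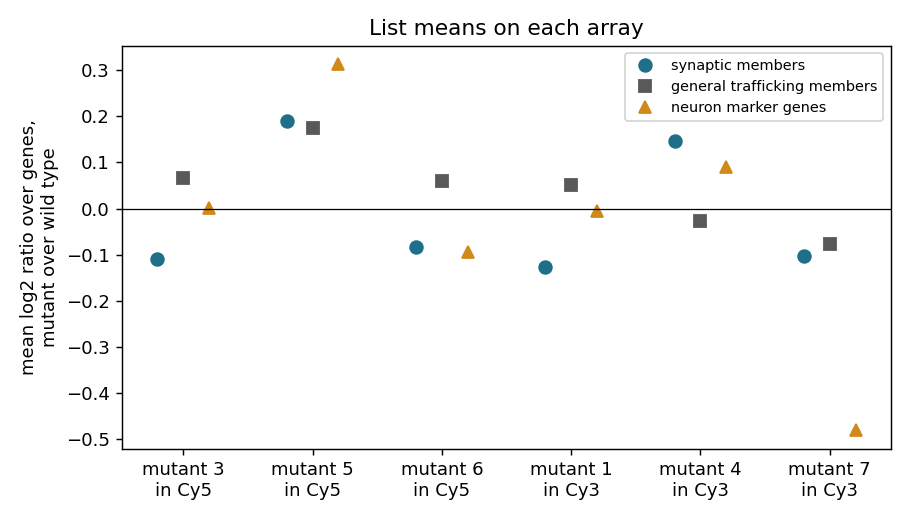
Mean log2 ratio of mutant over wild type (y axis) on each array (x axis, by mutant and its dye) over 19 synaptic genes (circles), 76 general trafficking genes (squares) and 11 neuron marker genes (triangles); each point is a mean over genes on 1 array. Both lists of members stay between -0.13 and 0.19, while the neuron markers run from -0.48 with mutant 7 to 0.31 with mutant 5.

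Neuron markers and synaptic members were both highest with mutant 5. The same array was also the highest for the general members (0.18) and for the mean over all 12576 genes (0.050). The neuron markers had 0.0013, 0.31 and -0.093 and then -0.0050, 0.090 and -0.48. Mutant 7, where the markers were lowest, had a synaptic mean of -0.10, close to that of mutants 3, 6 and 1. With 6 arrays, 2 per wild type, no correlation between the lists was computed.

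Genes for proteins of the synaptic vesicle cycle outside the member families were also near 0 in the median. Of 46 such genes listed, 31 were tested, and none of their 34 probes had an unadjusted limma p under 0.05. Their median fitted ratio over genes was 0.0074, with 17 above 0 and 14 below, and the range was from -0.53 (Dnm1) to 0.42 (Syn2). The list mean ran from -0.30 with mutant 7 to 0.18 with mutant 3. Rph3a, a Rab3 effector on synaptic vesicles, had values between -0.31 and -0.013, below 0 on 6 of 6 arrays, with a fitted ratio of -0.14 (SE 0.082). Unc13a, which primes vesicles for fusion, was fitted at -0.22 (SE 0.13), and Cplx2, a complexin that clamps the SNARE complex, at 0.15 (SE 0.12). Erc1, an active-zone scaffold, was fitted at 0.18 and 0.45 on 2 probes.

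Golgi and endoplasmic reticulum Rabs were the role with the most even direction. Of 12 genes 11 had a fitted ratio above 0, with a median of 0.087, and Rab2a was the exception at -0.10. Under each of the 4 ways of scaling tried, 11 of the 12 lay above the median of all probes. Settings that differ only in centring move all probes of an array together, so they could hardly change this count. The list mean was 0.37, 0.35 and 0.13 with the mutant in Cy5 and -0.040, -0.16 and 0.047 in Cy3, on average 0.11 ± 0.21 (SD, n = 6 arrays), so that the mean was within its spread over arrays and the orientations did not overlap. Rab1b alone had 3.65 in mutant 3, -1.20 in mutant 1 and -1.83 in mutant 4, values that weigh heavily on the list means of these arrays. This role was singled out after its values were seen, and it was not tested as a list.

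Rab43, which acts in transport between the endoplasmic reticulum and the Golgi, was the member with the smallest p. It was above 0 in every mutant, at 0.37, 0.79 and 0.38 with the mutant in Cy5 and 0.41, 0.23 and 0.41 in Cy3. The orientations overlapped and mutant 5 was the highest. Its fitted ratio was 0.43 (SE 0.11, interval 0.16 to 0.70), a level 1.35-fold higher (limma, unadjusted p = 0.0084, adjusted p = 0.90). The unadjusted p stayed under 0.05 in 6 of 6 fits with an array left out, with ratios from 0.36 to 0.47, and in 13 of 13 other settings, with ratios from 0.35 to 0.69.

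The other members of this role had smaller ratios. Rab39b, a neuronal Rab of the Golgi, had 0.078, 0.097 and 0.065 and then 0.11, 0.17 and 0.074, above 0 in all 6 mutants, and was fitted at 0.10 (SE 0.069). Rab18, found on the endoplasmic reticulum and lipid droplets, had 0.34, 0.22 and 0.23 against -0.091, 0.11 and 0.12, higher with the mutant in Cy5, and was fitted at 0.15. Rab33b, a Golgi Rab of the autophagy route, was likewise higher in that orientation, at 0.32, 0.45 and 0.13 against -0.083, -0.020 and 0.18, overlapping only slightly. Rab1a and Rab6a, general Rabs of the early secretory route and of the Golgi, were fitted at 0.035 and 0.036 with intervals within 0.30 of 0. Rab1b was measured in 4 mutants, at 3.65 and 0.66 in the Cy5 orientation and at -1.20 and -1.83 in the Cy3 one, and its fitted ratio of 0.22 had an interval from -1.62 to 2.07. Rab33a was at 1.98 in mutant 5 and between -0.72 and 0.33 in the rest.

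**Figure D3:**
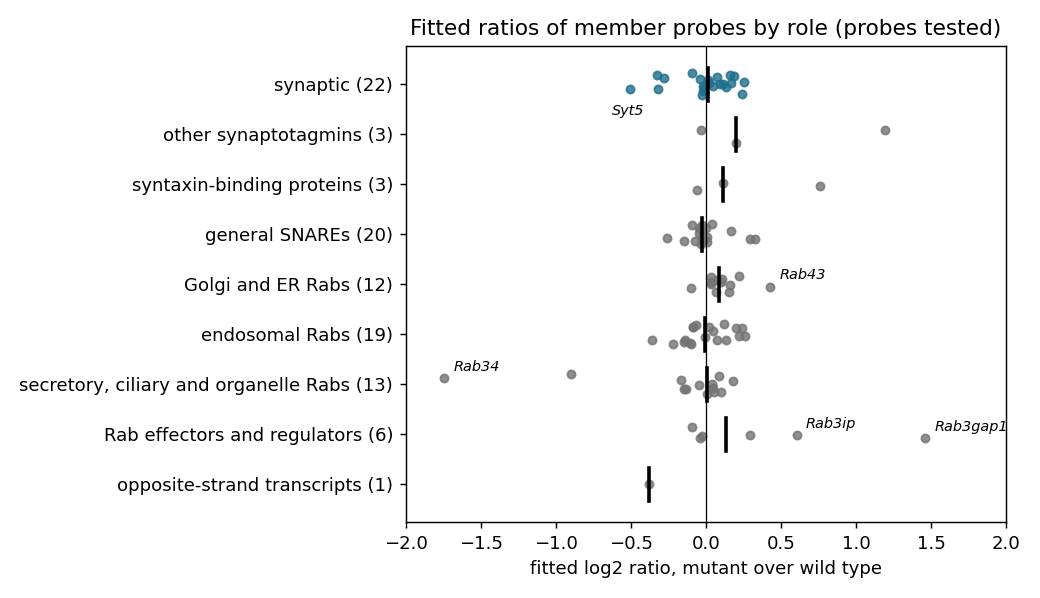
Fitted log2 ratio of mutant over wild type (x axis) of each tested member probe, by role (y axis, number of probes in brackets), with the median of the role as a black bar and the 5 members with an unadjusted p under 0.05 named; the vertical position within a role is arbitrary. Medians lie near 0 in the large roles, and 11 of 12 Golgi and endoplasmic reticulum Rabs lie to the right of 0.

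Endosomal Rabs were spread around 0, with 9 of 19 above it and a median of -0.0054. Rab5a, the Rab of early endosomes, was above 0 in all 6 mutants, from 0.018 to 0.24, and was fitted at 0.12 (SE 0.081). Its paralogs did not share this: Rab5b had -0.60, 0.63 and 0.12 and then -0.29, 0.60 and -0.16, and Rab5c had its highest value, 0.68, in the mutant where Rab5b had its lowest. Rab7, the Rab of late endosomes and lysosomes, was fitted at -0.088 (interval -0.37 to 0.19), and Rab11a and Rab11b, of recycling endosomes, at -0.086 and 0.076. Rab4a, of fast recycling, had the lowest fitted ratio of the role, -0.36 (SE 0.19), and its value of -1.16 in mutant 7 lay apart from the other 5, which ran from -0.36 to 0.008. Rab15 was fitted at 0.22 (limma, unadjusted p = 0.077, adjusted p = 0.90), above 0 on 5 of 6 arrays, and was higher with the mutant in Cy3.

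Endosomal members also held some that followed the dye rather than the genotype. Rab17, a Rab of epithelial recycling, had 1.31 and 1.23 with the mutant in Cy5 and -2.63, -1.03 and -0.99 in Cy3, and was fitted at -0.11. Rab21, which acts in integrin traffic, had -0.45, -0.71 and -0.20 against 0.38, 0.079 and 0.010, and Rab35 had 0.11, 0.014 and 0.30 against -0.58, -0.12 and -0.31. In each of these, the sign turned with the label.

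Among secretory, ciliary and organelle Rabs, 7 of 13 tested were above 0, with a median of 0.0048. Rab34, a Rab of ciliogenesis, had the lowest fitted ratio of all members, at -1.74 (SE 0.46; limma, unadjusted p = 0.026, adjusted p = 0.90). It had values in 4 mutants, -0.48 and 0.60 with the mutant in Cy5 and -4.39 and -2.36 in Cy3. The low ratio came from the second orientation, and with the mutant in Cy5 alone the mean was 0.060. The unadjusted limma p of Rab34 was under 0.05 in 9 of 12 other settings. Rab38, which serves melanosomes and related organelles, was fitted at -0.90 (interval -2.06 to 0.26) over 5 arrays, with -2.30 in mutant 3 and 0.46 in mutant 1. Rab23, a Rab known for restraining Hedgehog signalling, ran from -0.82 to 0.40 and was fitted at -0.16. Rab8a, of ciliary and surface transport, had 0.34, 0.47 and 0.37 against -0.43, 0.13 and 0.20, higher with the mutant in Cy5, and was fitted at 0.18. Rab10 was fitted at 0.10 and Rab12 at 0.087, both with intervals within 0.33 of 0.

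Rab3d was the member that most clearly followed the dye. This Rab of regulated secretion in exocrine cells had -1.01, -1.58 and -1.36 with the mutant in Cy5 and 1.38, 0.99 and 1.85 in Cy3. All values of the first orientation were low and all of the second high, with a gap of 2 log2 units, and the fitted genotype ratio was 0.046 (interval -0.35 to 0.44). Its dye coefficient was -1.36 (SE 0.12; limma, adjusted p = 0.042). It was the 1 member called for the dye, where 47 of all 17476 probes (0.269%) were, and in each of the 6 fits with an array left out it was not called. At an unadjusted p under 0.05 the dye coefficient of 20 of 99 member probes differed (20.2%), beside 20% of all probes. The values of the orientations did not overlap for 26 member probes (26.3%), 4 synaptic and 22 general, beside 29.8% of all probes. Members thus followed the dye about as often as other probes.

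**Figure D4:**
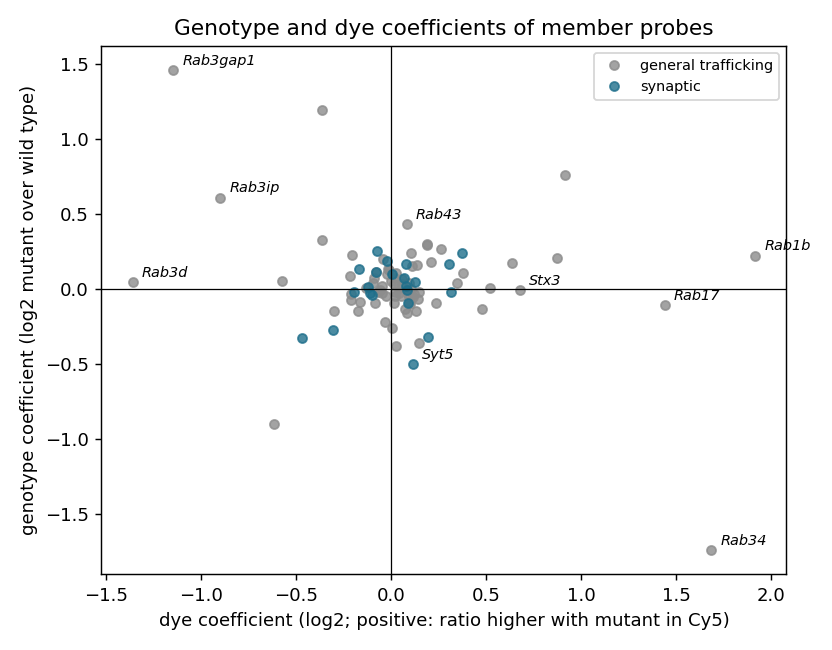
Dye coefficient (x axis, log2, positive where the ratio is higher with the mutant in Cy5) against genotype coefficient (y axis, log2 of mutant over wild type) of each tested member probe, synaptic in blue and general in grey, with the members of small p or large dye coefficient named. Rab43 lies near 0 on the dye axis, while Rab3d at -1.36 on the dye axis lies near 0 on the genotype axis.

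General SNAREs varied little. Of 20 tested probes 7 were above 0 and 13 below, with a median of -0.023. Stx5a, the syntaxin of the Golgi, had -0.077, 0.37 and 0.028 and then -0.22, 0.17 and -0.27, with an interval from -0.27 to 0.27. Stx7 and Stx8, of late endosomes, were fitted at -0.072 and -0.023 with intervals within 0.26 of 0, and both turned sign with the dye, in opposite directions. Vamp7 and Vamp8, of lysosomal and regulated fusion, were fitted at 0.0089 and -0.023. Snap23, the general counterpart of Snap25, was fitted at 0.042 (SE 0.13). Stx16, of the trans-Golgi network, had the lowest fitted ratio, -0.26, and ran from -1.32 in mutant 3 to 0.44 in mutant 5. Stx4a, of the plasma membrane, had the highest, 0.33 (SE 0.43), from a value of 2.41 in mutant 1 with the other 5 between -0.36 and 0.17. Stx3, of apical membranes, had 0.97, 0.95 and 0.081 against -0.17, -1.15 and -0.74 and was fitted at -0.010.

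Rab effectors and regulators held 2 of the 3 members that were higher at an unadjusted p under 0.05. Rab3gap1, a subunit of the complex that inactivates Rab3 and activates Rab18, had 1.09 and -0.34 with the mutant in Cy5 and 3.90, 2.12 and 1.80 in Cy3. It was above 0 on 4 of 5 arrays, and higher throughout the second orientation. It was fitted at 1.46 (SE 0.42, interval 0.33 to 2.59; limma, unadjusted p = 0.022, adjusted p = 0.90), the highest fitted ratio of all members, and with the mutant in Cy5 alone its mean was 0.38. The unadjusted limma p of Rab3gap1 was under 0.05 in 11 of 12 other settings. Rab3gap2, its partner subunit, ran from -1.14 to 1.54 over 5 arrays and was fitted at 0.29 (SE 0.51). Rab3ip, also called Rabin8, which activates Rab8, had values in 4 mutants, -0.41 and -0.086 with the mutant in Cy5 and 1.13 and 1.83 in Cy3. It was fitted at 0.61 (SE 0.19; limma, unadjusted p = 0.043, adjusted p = 0.90), and with the mutant in Cy5 alone its mean was -0.25. Rab11fip1 and Rab11fip2, effectors of recycling endosomes, were fitted at -0.028 and -0.043.

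The remaining roles were small. Stxbp2, a syntaxin-binding protein of granule release, was fitted at 0.76 (SE 0.46), with 3.43 in mutant 5 and -0.59 in mutant 1, and Stxbp3 and Stxbp4 were at 0.12 and -0.057. Syt14 was fitted at 1.19 (SE 0.53; limma, unadjusted p = 0.072, adjusted p = 0.90), high in mutants 3 and 1 at 2.60 and 3.21 and near 0 in mutants 5 and 6. Syt13 had -0.32, -0.18 and -0.24 against 0.078, 0.15 and 0.30 and was fitted at -0.034. Rab26os, annotated on the strand opposite Rab26, was below 0 in all 6 mutants, from -0.98 to -0.073, and was fitted at -0.38 (SE 0.17; limma, unadjusted p = 0.077, adjusted p = 0.90).

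The same sign on every array was seen for 4 of 99 member probes (4.04%), Rab43, Rab39b and Rab5a higher and Rab26os lower, beside 5.57% of all probes. The genes Snap29, Rab13, Stx6, Rab3il1, Syt17, Rab10os and Rab11fip4os2, and second probes of Rab11fip1 and Stxbp5, had too few values for the fit. Where a gene had 2 tested probes, those of Syt11 and Vamp5 had the same sign, while those of Vamp1 (0.013 and -0.091) and Syt6 (0.24 and -0.039) did not.

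Wider general machinery was close to 0 in the median as well. Of 53 listed genes that load, recycle or tether Rabs and SNAREs outside the member families, 40 were tested, with a median fitted ratio of 0.013 and 1 of 43 probes at an unadjusted limma p under 0.05. That was Sytl1, a synaptotagmin-like Rab27 effector, which was below 0 on 6 of 6 arrays (-0.49 to -0.11) and fitted at -0.25 (SE 0.078; limma, unadjusted p = 0.022, adjusted p = 0.90). Sec22b, a SNARE between the endoplasmic reticulum and the Golgi, was fitted at 0.29 (SE 0.11; limma, unadjusted p = 0.050, adjusted p = 0.90), with 0.68, 0.48 and 0.47 against -0.19, -0.062 and 0.34. Rabac1, which binds prenylated Rabs, was fitted at -0.19 and Rabep1, an effector of Rab5, at 0.20. Over the genes of this list the fitted ratios ran from -1.66 (Sytl3) to 0.30 (Chml). The list mean ran from -0.32 with mutant 3 to 0.11 with mutant 4.

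For most members the interval bounded a change relative to the average probe of the array. The 95% interval lay within 0.5 of 0, a change of 1.41-fold, for 57 of 99 member probes (57.6%), beside 44.2% of all probes. It did so for 11 of 22 synaptic and 46 of 77 general probes, among the latter 15 of 20 general SNAREs and 9 of 12 Golgi and endoplasmic reticulum Rabs. The median SD over arrays was 0.31 for members and 0.41 for all probes, and 86 of 99 member probes (86.9%) had all 6 values, beside 77.4% of all probes. Synaptic probes had a median SD of 0.38 and general ones of 0.30. An interval within 0.5 of 0 leaves room for smaller changes. The bound holds for ratios centred on the array median. Without centring, and with the arrays centred on the Gapdh control spots, the median of all probes was 0.26. Because no spot intensity was used, a narrow interval does not show that a transcript was detected.

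The wild type on the array went along with the sign of a group of members. Of 87 member probes with values on all 4 arrays concerned, 15 (17.2%) were above 0 on both arrays against wild type 8 and below 0 on both against wild type 2, beside 9.23% of all probes. They were Rab10, Rab11a, Rab11b, Rab14, Rab23, Rab5b, Snap23, Snap25, Stx12, Stx17, Stx5a, Stxbp4, Syt9, Vamp7 and 1 Syt11 probe. Rab14, for example, had 0.63 and 0.33 against wild type 8 and -0.18 and -0.29 against wild type 2, and Stx17, a syntaxin of autophagosome fusion, had 0.32 and 0.31 and then -0.37 and -0.32. The pattern was not particular to the members. It was seen for 13 of 38 probes (34.2%) of the wider general machinery and 6 of 31 (19.4%) of the synaptic vesicle cycle outside the member families. The reverse was seen for 8 of 87 member probes (9.20%), beside 6.29% of all probes. This pattern was singled out after the values were seen and is a description, and it counts the array labelled wild type 1 as wild type 2. Each wild type met its own mutants, so a wild-type cortex and the mutants compared with it cannot be told apart.

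**Figure D5:**
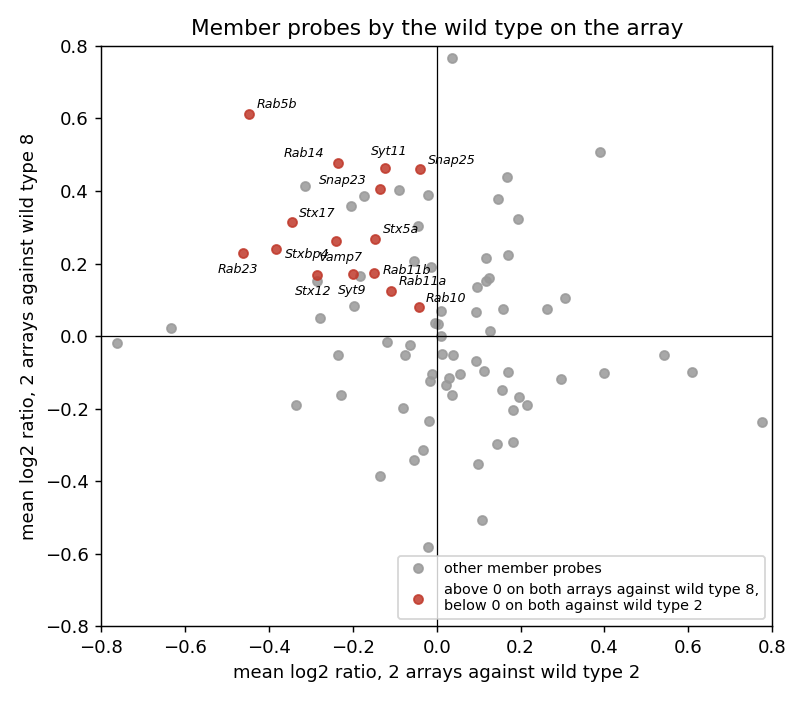
Mean log2 ratio of mutant over wild type of tested member probes on the 2 arrays against wild type 2 (x axis) and on the 2 against wild type 8 (y axis). Where a value was missing, the mean rests on the other array. Not shown are 15 probes beyond 0.8 on an axis, among them Syt8, which had no value against wild type 2. The 15 probes above 0 on both arrays against wild type 8 and below 0 on both against wild type 2 are in red and named.

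Arrays of the same dye orientation tended to rank the members more alike than arrays of opposite orientation, but the ranges overlapped. Over member probes, Spearman's rho between arrays was -0.07 to 0.41 within an orientation, -0.13 to 0.08 between orientations with the same wild type, and -0.39 to 0.07 between orientations with different wild types. Over all tested probes the ranges were 0.20 to 0.37, -0.22 to 0.017 and -0.43 to -0.027 in the same order. Such correlations are across probes, which share arrays and cortices, and are given as a description.

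Of the member genes, 6 lie on chromosome 6 (GRCm38.p6), which also carries Mest and so the targeted allele in every mutant. Beside Rab43 at 0.43, these were Rab19 at 0.033, Rab7 at -0.088, Vamp1 at -0.039, Vamp5 at -0.034 and Vamp8 at -0.023. The 5 others were thus within 0.09 of 0.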

How the data were processed

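The deposited values are log2 ratios of dual-channel oligonucleotide arrays, each of 1 mutant and 1 wild-type cortex. Per the labels' protocols, Trizol was used for the RNA. How the authors scanned, filtered and normalized the arrays before they deposited these log2 values is not given in the sources used here. Values at the ceiling of 16.61 were set to missing (588 in all, 0 of them members'), as were empty entries. Ratios were turned to mutant over wild type, with the direction read from Mest, and centred on each array's median. The fit used limma 3.58.1 (R 4.3.3) on probes with values on at least 4 arrays, of which 2 in each dye orientation (genotype intercept, dye term, wild-type cortex as a random block with a consensus correlation of 0.25). A check of the fit on simulated data asked for the right sign of planted changes and for few unadjusted p under 0.05 without a change. It set no requirement on calls at the adjusted threshold.

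Symbols come from the platform annotation, with all 102 member genes matched by Entrez identifier to the gene table of GRCm38.p6. The members and lists were chosen with earlier results of these data known, and no list was tested. Roles followed symbols, Rab1a was read as Rab1, and opposite-strand transcripts formed a role of their own within the general list. List means use 1 value per gene, the mean of its tested probes. Members named were every synaptic member, those at an unadjusted p under 0.05 or called for the dye, the extremes of each role, the 6 general members per direction with the smallest p, and those of 1 sign on every array. Others are named as examples of their role and were chosen after their values were seen. Alternatives covered centring, normalization, the block, the dye term, missing values, the ceiling, 1 value per gene, single arrays and orientations left out, list definitions and the threshold. A fixed wild-type term, the list without opposite-strand transcripts and the synaptic list without 1 Rab3a value were added after the data were seen.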

Additional observations from a re-analysis of the deposited data

Results flagged for a closer look

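In 4 of 50 results examined (the members named by rule and the list means), 1 array lay further from the rest than Dixon's 95% limit allows, and chance alone gives about 1 in 20. Rab3a was at -2.885 in mutant 3, with the nearest other value at -0.008. Rab4a was at -1.163 in mutant 7, with the nearest at -0.363. Stx4a was at 2.411 in mutant 1, with the nearest at 0.174. Rab43 was at 0.7885 in mutant 5, with the nearest at 0.411, and its other 5 values were all above 0.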

How the results depend on the processing

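No probe was called for genotype under any alternative that was run, while 223 to 2761 probes had an unadjusted limma p under 0.05. The count of 5 members at an unadjusted limma p under 0.05 changed with the setting. With the arrays centred on the Gapdh control spots it was 20 of 99 (20.2%, 19 of them higher), beside 15.8% of all probes. With probes measured on all 6 arrays it was 2 of 86 (2.33%), beside 4.46%. With the mutant in Cy3 only it was 9 of 102 (8.82%), beside 10.9%, and at a threshold of 0.01 it was 1. With single arrays left out it was 2 to 6 (2.25% to 6.45%), beside 2.14% to 5.66% of all probes. The 1 member called for the dye became 4 without centring and 0 with Gapdh centring, with no wild-type block and with probes measured on at least 2 arrays, and it was 0 to 0 with single arrays left out. Without centring the synaptic mean was 0.24 and the general mean 0.29, and with Gapdh centring they were 0.25 and 0.30, as the median of all probes moved to 0.26 in each. Of the probes with an unadjusted p under 0.05, 40.8% were higher in the main setting, 80.3% without centring and 96.7% with Gapdh centring. With the mutant in Cy5 only, Rab3ip turned to -0.25 and Rab34 to 0.060. The cause of these shifts was not tested. Of the 46 named members' probes, 13 changed sign without centring, 12 with Gapdh centring and 14 with the mutant in Cy3 only. Each ratio already sets 1 mutant against the wild type on the same array. No further pairing by replicate number was possible, because these numbers run over a single group of ratios, with no second group that shares them. The sharing of a wild-type cortex by 2 arrays was a random block in the main setting. A fixed wild-type term was added after the data were seen. With it, 6 of 99 member probes (6.06%) had an unadjusted limma p under 0.05, beside 7.27% of all probes.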
